A study of Mus musculus with 45 samples.

Results

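Messenger RNA of the mouse mammary tumour lines MYAZ12.3i and MYAZ6.6g was compared in control medium, 3 cultures of each. The 6 libraries were taken by their labelled cell line and treatment, out of 45 in the series and out of 30 from its 10 lines in control medium without NDI1. Both lines were isolated in house from mammary tumours of MMTV-cMYC mice, in which the MMTV promoter drives a MYC transgene in mammary epithelium, and the study treats them as biological replicates of MYAZ16.1e, a line of the same origin. Cells were seeded at 250000 per well in DMEM:F12 with serum, glutamine, insulin, hydrocortisone and EGF, and collected after 24 h plus 6 h in control medium. The sources differ on whether the medium of these lines was changed for those 6 h. Each group is a single line, and the 3 cultures of a line are called technical replicates by the submitters, so the p-values below measure the spread between cultures of a line and not between tumours. Control cultures of MYAZ16.1e and of MYAZ12.3i_NDI1 (a derivative labelled with NDI1, the single-subunit NADH dehydrogenase of yeast) are given beside some genes as values only.

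MYC is a transcription factor that binds DNA with its partner MAX and drives ribosome production, metabolism and cell division, and its overexpression in mammary epithelium gives tumours in mice. Tumours that start from the same oncogene can still differ in the receptors, matrix and signalling genes that their cells express. Interferon-stimulated genes are switched on by STAT and IRF transcription factors, and genes of sterol synthesis by the SREBP factors when sterols in the endoplasmic reticulum run low.

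Total counts on genes were 21220187 to 24597478 in MYAZ12.3i and 21945417 to 23869954 in MYAZ6.6g, against 19517859 to 29019988 over all 45 libraries. Spearman's rho between cultures of a line was at least 0.9975, and counts of each pair of cultures differed by more than sampling noise, so each was kept as a sample. Replicate 2 of MYAZ12.3i stood somewhat apart, with a chi-square per degree of freedom of 3.44 and 3.94 against the other cultures of its line, which gave 2.29 between them, and 2.64 to 2.75 within MYAZ6.6g. Levels are given as CPM, which are counts scaled to the size of the library. The luminal keratins Krt8 and Krt18 were present in all 6 cultures, but the defining epithelial genes Epcam, Cdh1 and Krt5 had at most 14, 4 and 3 counts in any of them, and Vim, the intermediate filament of mesenchymal cells, had 2750 to 3200 CPM. Xist, which is transcribed from an inactive X chromosome, had 689 to 707 CPM in MYAZ12.3i and 547 to 599 CPM in MYAZ6.6g, against a mean of 0.028 CPM in MYAZ16.1e. The Y-linked genes Kdm5d and Uty had at most 1 count. Myc had 602, 576 and 594 CPM in the MYAZ12.3i cultures and 598, 572 and 566 CPM in those of MYAZ6.6g. These ranges overlap, and the log2 fold change of 0.03 ± 0.03 (SE, n = 3 per line) did not pass the test (adjusted p = 0.434, edgeR quasi-likelihood test). The gene counts do not separate the transgene from the mouse gene.

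The lines differed at many genes by small amounts. Of 12764 genes tested, 6338 passed an adjusted p of 0.05 (49.7%), 3190 of them higher in MYAZ12.3i (25.0%) and 3148 lower (24.7%), and the counts of each gene list are to be read against these shares. The median size of these differences was 0.27 on the log2 scale, and 8.91% of them were larger than 2-fold. Past the threshold and over 2-fold there were 370 genes higher in MYAZ12.3i (2.90%) and 195 lower (1.53%). The 3 cultures of a line lay wholly on one side of the other line's 3 at 7258 genes (56.9%). Without replicate 2 of MYAZ12.3i, 2885 genes were higher and 2920 lower. For a single gene an exact permutation test of 3 against 3 cultures cannot give a p below 0.1, so only the fit across all genes is used. In a model of the 30 control libraries, 6276 of 13795 genes differed between MYAZ12.3i and MYAZ6.6g (45.5%), 9044 between MYAZ12.3i and MYAZ16.1e (65.6%) and 8077 between MYAZ6.6g and MYAZ16.1e (58.6%), 3 comparisons that share libraries. The root mean square difference of mean log2 CPM between the lines was 0.481, rank 3 of 45 pairs of lines from the closest, and it was 0.273 and rank 5 when genes under a mean of 3 on the log2 CPM scale were dropped. The closer pairs were of lines isolated from lungs, LM3 and LM3_LM at 0.358 and LM1 and LM1_LM at 0.39. Between cultures of the same line, MYAZ12.3i or MYAZ6.6g, this difference was 0.361 to 0.387 over all these genes. Those values compare single cultures and not means of 3, so part of each distance is spread between cultures.

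**Figure D1:**
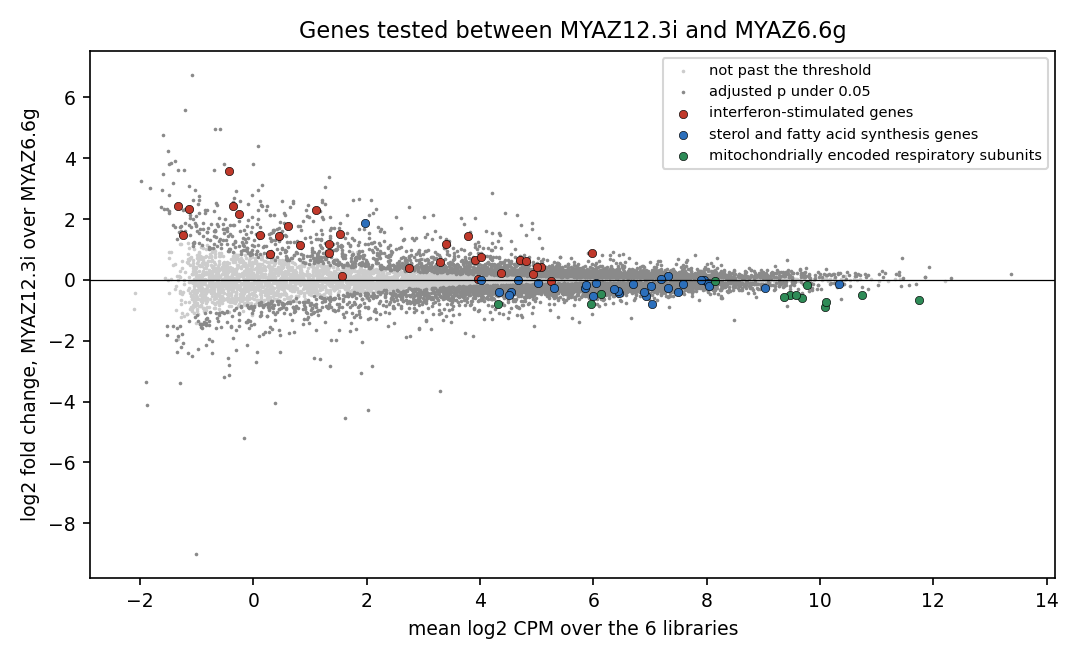
Each point is 1 of 12764 genes, with its mean log2 CPM over the 6 libraries on the x axis and its log2 fold change on the y axis. Most interferon-stimulated genes (red) lie above 0, the farthest of them at low levels, while sterol and fatty acid synthesis genes (blue) and mitochondrially encoded subunits (green) lie mostly below 0.

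Among genes of at least moderate level, the receptor Pdgfra led those higher in MYAZ12.3i. Pdgfra, the alpha receptor for platelet-derived growth factor, had 45.5, 50.2 and 49.3 CPM in MYAZ12.3i and 6.19, 7.43 and 6.32 CPM in MYAZ6.6g. No culture overlapped, and the log2 fold change was 2.86 ± 0.07 (SE, n = 3 per line, adjusted p = 4.31e-16). The gene lies at chr5:75152292-75198215 on the plus strand (GRCm38). Its mean was 6.78 CPM in MYAZ16.1e and 55.4 CPM in MYAZ12.3i_NDI1, and of the 10 lines MYAZ12.3i had the highest mean. The 12 genes of each direction with the largest fold changes were taken by a rule on level (mean log2 CPM of at least 3), significance and absence of overlap, so their sizes describe the extremes and are no further test.

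Alpl, tissue-nonspecific alkaline phosphatase, had 46.8, 42.1 and 46.4 CPM in MYAZ12.3i and 9.92, 9.74 and 9.82 CPM in MYAZ6.6g, a log2 fold change of 2.20 ± 0.06. Mcam, a cell adhesion molecule of the immunoglobulin family, had 52.1, 51.8 and 49.9 CPM against 11.7, 11.5 and 11.4 CPM, a log2 fold change of 2.15 ± 0.06. Gli2, a transcription factor of Hedgehog signalling, had 49.4, 45.4 and 49.7 CPM against 14.0, 13.8 and 13.3 CPM, a log2 fold change of 1.81 ± 0.06. For all of these the MYAZ12.3i cultures were the high ones and the lines were separated by more than 3 times the level of MYAZ6.6g. Ogn (osteoglycin, a small proteoglycan of the matrix) had a log2 fold change of 2.03 ± 0.08 and Pros1 (protein S, an anticoagulant that is also a ligand of TAM receptors) 2.08 ± 0.10. The enzymes Ogdhl (a relative of oxoglutarate dehydrogenase) and Ak3 (mitochondrial adenylate kinase) had log2 fold changes of 2.02 ± 0.10 and 1.86 ± 0.05. Clca3a1, Dennd2a and Trim71 were also among the 12, at 2.14, 1.67 and 1.63. Among the 10 lines MYAZ12.3i had the highest mean of Pdgfra, Mcam, Clca3a1, Pros1, Ogn, Ogdhl, Ak3 and Gli2, but LM3 had more Alpl (73.8 CPM), LM1_LM more Dennd2a (74.9 CPM) and LM2_LM more Trim71 (44.1 CPM).

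Under the same rule on level, Tubb2a had the largest decrease in MYAZ12.3i. Tubb2a, a beta tubulin at chr13:34074274-34078007 on the minus strand, had 3.05, 2.52 and 2.43 CPM in MYAZ12.3i and 33.0, 33.5 and 33.6 CPM in MYAZ6.6g. The cultures of a line were close and the lines far apart, and the log2 fold change was -3.65 ± 0.09 (adjusted p = 3.51e-16). Krt8, a keratin of simple epithelium at chr15:101996698-102004482 on the minus strand, had 217, 222 and 220 CPM in MYAZ12.3i and 557, 536 and 555 CPM in MYAZ6.6g, a log2 fold change of -1.33 ± 0.03 with the smallest adjusted p of all genes (7.32e-18). MYAZ12.3i had the lowest mean Krt8 of the 10 lines and MYAZ6.6g the next lowest, and LM3_LM the highest (1700 CPM). Bace1, a membrane protease that cleaves the amyloid precursor protein, had 31.0, 34.1 and 31.5 CPM against 86.7, 82.3 and 82.4 CPM, a log2 fold change of -1.38 ± 0.05. Crip1 (a LIM domain protein) was at -1.84 ± 0.08 and Acap1 (which activates the GTPase function of ARF6) at -1.75 ± 0.09. Tgfbi, a matrix protein that TGF-beta induces, was at -1.39 ± 0.09 and B4galt6, which makes lactosylceramide, at -1.51 ± 0.05. Tmem51, Miga1, Jmjd8, Fam83a and Ccbe1 completed the 12, at -1.62, -1.35, -1.31, -1.30 and -1.29. Of these 12, Tubb2a, Crip1, Acap1, Tmem51, Bace1, Miga1, Krt8 and Jmjd8 had their lowest mean of the 10 lines in MYAZ12.3i. All 24 genes kept their call under every alternative run. In the annotation Ogn, Ak3, Bace1 and Jmjd8 overlap a gene on the other strand (Cenpp, Cdc37l1, Rnf214 and Stub1), and the strand setting of the counting is not given in the sources used here.

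**Figure D2:**
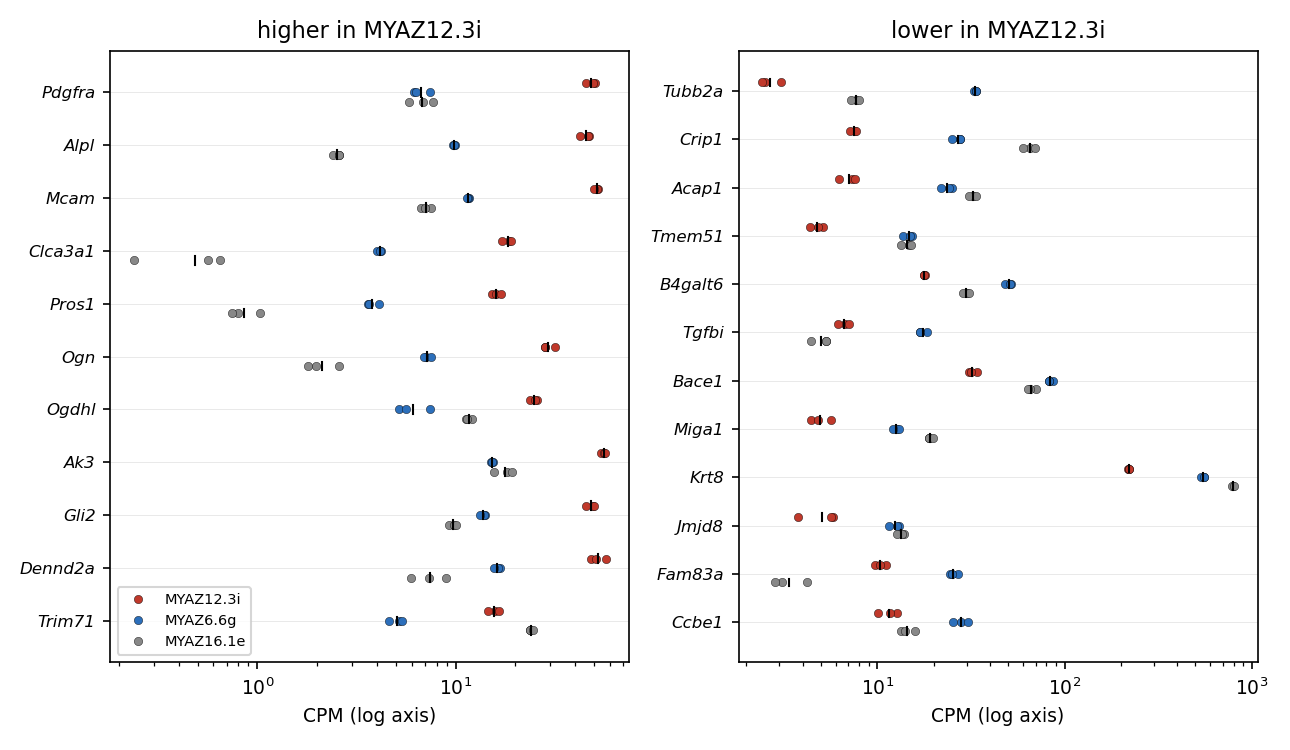
CPM of 23 of these 24 genes in each culture on a log axis, with a bar at the mean of the 3 cultures, for MYAZ12.3i, MYAZ6.6g and, as values only, MYAZ16.1e. The cultures of MYAZ12.3i and MYAZ6.6g do not overlap at any of them. MYAZ16.1e lies beside MYAZ6.6g for Pdgfra, above both lines for Trim71 (23.9 CPM) and below both for Fam83a (3.39 CPM).

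Some genes stood above 3 counts in every library of 1 line and at 3 counts or fewer in every library of the other. There were 96 such genes in MYAZ12.3i and 51 in MYAZ6.6g, and the 6 with the highest CPM in each are given. Trim30a, a member of a family of antiviral TRIM proteins with close paralogs, had 2.10, 2.06 and 2.07 CPM in MYAZ12.3i (45 to 52 counts) and at most 1 count in MYAZ6.6g, at least 16-fold higher when 3 counts per library are set as the floor. Sp100, a component of PML nuclear bodies, had 27 to 44 counts against at most 2, at least 12.6-fold higher. Hoxa5, Serpinf1, Rragd and Napsa were at least 7.28-, 7.23-, 7.07- and 7.06-fold higher. In the other direction Frmpd4, a synaptic scaffold gene on the X chromosome, had no count in any MYAZ12.3i library and 2.68, 3.19 and 2.24 CPM in MYAZ6.6g, at least 20.8-fold lower in MYAZ12.3i. Shtn1 was at least 4.41-fold lower, Slc17a7 3.58-fold, Chn2 3.16-fold, Pgbd5 2.88-fold and Sox21 2.82-fold, all on 16 counts or fewer per library.

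Interferon-stimulated genes were higher in MYAZ12.3i almost without exception. Of 34 listed, 31 were tested and 28 were higher, 0 were lower and 3 did not pass, against 25.0% of all genes tested that were higher. Their median log2 fold change was 0.90, against 0.002 over all genes, and 15 were over 2-fold higher (2.90% of all genes). Ifit1, Ifit3, Rsad2, Ifi44 and Mx2 had at most 8 counts in any MYAZ6.6g library and passed the filter on counts only through MYAZ12.3i. They could hardly be tested without being higher there, so their part in these counts and in the median is no support. The list was drawn up with earlier results of this series known. Leaving out any single library gave 25 to 28 higher and 0 lower. Of the 15, all but Ifit2 and Gbp7 were below 10 CPM in every culture of MYAZ12.3i.

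Ifit1, which binds viral RNA that lacks the mammalian cap methylation, had 1.86, 1.79 and 2.62 CPM in MYAZ12.3i and 0.132, 0.126 and 0.245 CPM in MYAZ6.6g, a log2 fold change of 3.59 ± 0.38 (adjusted p = 2.19e-07). Rsad2 (viperin, which makes a chain-terminating nucleotide) had 1.20, 1.33 and 2.11 CPM against 0.351, 0.210 and 0.285 CPM, a log2 fold change of 2.44 ± 0.38. Oasl2, of the oligoadenylate synthetase family, had 4.04, 3.99 and 5.25 CPM against 0.790, 0.881 and 0.978 CPM, a log2 fold change of 2.32 ± 0.21. The third MYAZ12.3i culture was the highest for all of these, and no culture of the lines overlapped. Among well counted members, Ifit2 had 22.1, 21.6 and 22.9 CPM against 8.64, 8.39 and 7.22 CPM, a log2 fold change of 1.46 ± 0.08. Ifitm3, which blocks viral entry, had 79.5, 83.9 and 86.5 CPM against 47.7, 42.2 and 43.8 CPM, a log2 fold change of 0.90 ± 0.05. Bst2 (tetherin) had 32.9, 30.1 and 31.3 CPM against 20.1, 20.8 and 19.4 CPM, a log2 fold change of 0.64 ± 0.06. The direction was the same for these well counted members as for those near 1 CPM, and their fold changes were smaller.

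Of the factors that drive these genes, Irf9 had 11.9, 11.1 and 12.1 CPM against 9.21, 6.97 and 7.17 CPM, a log2 fold change of 0.59 ± 0.11. Stat2 had 14.3, 15.4 and 15.7 CPM against 14.9, 15.4 and 14.3 CPM, and these ranges overlap (log2 fold change 0.02 ± 0.07, adjusted p = 0.861). Irf7, which drives interferon genes, was higher by 1.44 ± 0.27 on the log2 scale. Dhx58 and Isg20 were the other members not past the threshold (0.14 ± 0.18 and -0.03 ± 0.05), and Oas2, Mx1 and Zbp1, with at most 13 counts, were not tested. Summed over the 34 genes, the level was 454, 456 and 471 CPM in MYAZ12.3i and 315, 301 and 301 CPM in MYAZ6.6g. MYAZ12.3i had the highest summed level of the 10 lines, followed by LM3_LM at a mean of 398 CPM, while MYAZ16.1e was at 303 CPM. The cultures of MYAZ12.3i_NDI1 had 456, 432 and 457 CPM. Oas1a and Ifi203 have near-identical relatives, so their counts are uncertain.

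**Figure D3:**
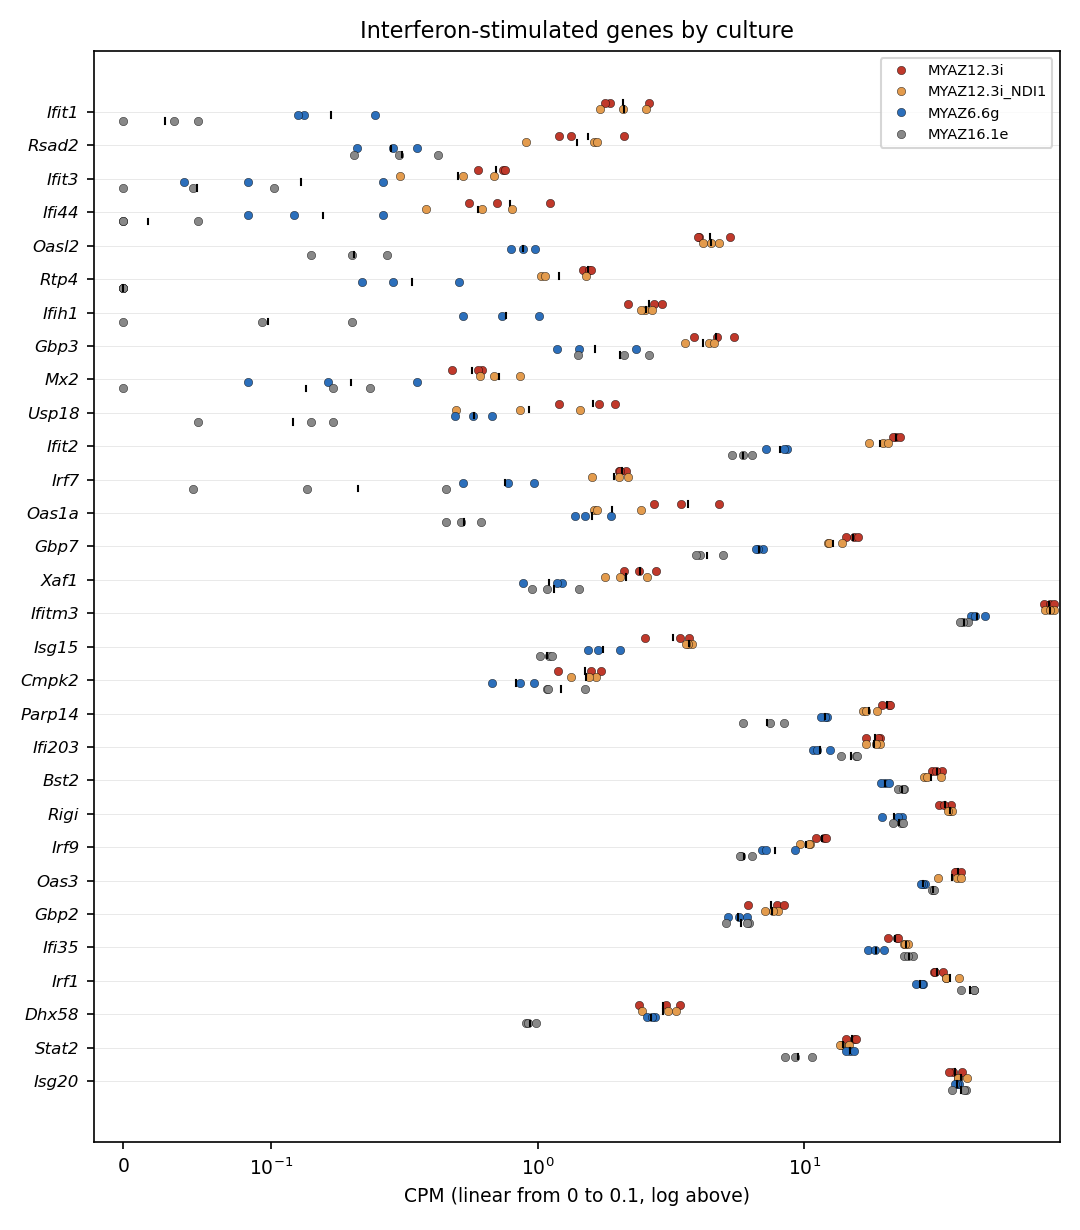
CPM of 30 of the 31 interferon-stimulated genes tested, in each control culture of MYAZ12.3i, MYAZ12.3i_NDI1, MYAZ6.6g and MYAZ16.1e, with a bar at the mean of 3 cultures and an axis that is linear up to 0.1 and logarithmic above. The MYAZ12.3i cultures lie to the right of those of MYAZ6.6g for 27 genes shown and among them for Dhx58, Stat2 and Isg20.

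Interferon-stimulated genes share a short response element that STAT and IRF factors bind, and the promoters of 3 members with large fold changes are shown because they hold letters like it. The windows are from RefSeq (GRCm38.p6), from 250 bases before to 50 after the annotated start, in the direction of the gene, and capitals mark matches to GAAA followed by any 2 bases and GAAA on either strand.
Ifit1 (chr19:34640639-34640938, plus strand): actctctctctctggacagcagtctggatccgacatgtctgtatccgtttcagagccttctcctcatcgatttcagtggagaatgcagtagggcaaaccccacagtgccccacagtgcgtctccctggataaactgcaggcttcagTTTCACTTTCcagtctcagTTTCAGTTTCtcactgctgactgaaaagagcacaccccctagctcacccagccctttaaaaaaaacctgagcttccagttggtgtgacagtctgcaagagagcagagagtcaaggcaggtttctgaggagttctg
Ifit3 (chr19:34583279-34583578, plus strand): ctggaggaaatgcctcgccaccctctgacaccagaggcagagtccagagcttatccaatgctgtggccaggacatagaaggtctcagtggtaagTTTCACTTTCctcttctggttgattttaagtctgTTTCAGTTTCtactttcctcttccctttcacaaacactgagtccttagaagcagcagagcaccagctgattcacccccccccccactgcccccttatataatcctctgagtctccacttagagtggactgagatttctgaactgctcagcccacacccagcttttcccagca
Rsad2 (chr12:26456403-26456702, minus strand): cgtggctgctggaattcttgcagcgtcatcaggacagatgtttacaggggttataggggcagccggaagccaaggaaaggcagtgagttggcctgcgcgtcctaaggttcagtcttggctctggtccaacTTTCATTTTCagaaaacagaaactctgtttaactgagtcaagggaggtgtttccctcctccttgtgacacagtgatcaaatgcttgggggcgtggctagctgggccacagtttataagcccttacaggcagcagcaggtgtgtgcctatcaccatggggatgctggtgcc
Ifit1 and Ifit3 held 2 matches each and Rsad2 held 1, all of them before the start, whereas the window of Oasl2 held none. Of the 24 tested members with a window, 14 held a match (58.3%), against 339 of 9414 tested genes (3.60%) and 3.44% of all 32851 windows. Among the members with a match was Stat2, which did not pass the test. A match describes the letters of the window and not binding.

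Genes of antigen presentation by MHC class I, many of which interferons also induce, were mostly higher in MYAZ12.3i. All 18 were tested, and 13 were higher and 2 lower, with a median log2 fold change of 0.40, against 25.0% higher and 24.7% lower over all genes. Nlrc5, the transactivator of class I genes, had 1.03, 1.15 and 0.915 CPM against 0.439, 0.168 and 0.245 CPM, a log2 fold change of 1.84 ± 0.40. The immunoproteasome subunits Psmb9 and Psmb8 were higher by 1.14 ± 0.17 and 0.95 ± 0.09. B2m, the light chain of class I molecules, had 289, 305 and 297 CPM against 209, 201 and 213 CPM, a log2 fold change of 0.51 ± 0.03. The heavy chains H2-K1 and H2-D1 were higher by 0.48 ± 0.03 and 0.39 ± 0.02, with the reservation that H2 genes share sequence. The lower members were the folding factors Calr (-0.37 ± 0.02) and Pdia3 (-0.17 ± 0.02), which serve the endoplasmic reticulum in general. Because these are abundant, the summed level of the list did not separate the lines (3140 to 3220 CPM against 3160 to 3190 CPM). The transporter Tap2 was higher by 0.46 ± 0.04, and its partner Tap1 had 6.72, 7.57 and 6.36 CPM against 6.71, 4.57 and 4.89 CPM and did not pass (adjusted p = 0.0512), although it did without replicate 1 of MYAZ6.6g (0.53).

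A list of interferon ligands, receptors and nucleic acid sensors, added after these values were seen, was mixed. Of 16 tested, 4 were higher and 3 lower, with a median of 0.02. The ligands Ifnb1 and Ifng had no count in the 6 libraries, which allows up to 3 counts in each. The receptor chain Ifnar1 had 65.5, 67.1 and 69.6 CPM against 65.4, 65.5 and 67.1 CPM and did not pass, while Ifngr2 (0.50 ± 0.06) and the adaptor Sting1 (0.59 ± 0.05) were higher and the kinase Jak1 (-0.38 ± 0.02) lower. The RNA sensors Ifih1 and Rigi, which belong to the interferon-stimulated list, were higher by 1.78 ± 0.26 and 0.62 ± 0.07.

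Complement genes, a list also added after their values were seen, were higher or did not pass. Of 11 tested, 7 were higher and 0 lower, with a median of 0.53, against 25.0% higher and 24.7% lower over all genes. C1s1, a protease of the first complement component, had 7.22, 8.44 and 7.36 CPM against 0.658, 1.05 and 0.489 CPM, a log2 fold change of 3.38 ± 0.21. Its partner C1ra had 30.4, 31.2 and 30.5 CPM against 11.2, 9.27 and 10.8 CPM, a log2 fold change of 1.56 ± 0.07. Serping1, the inhibitor of both proteases, had 0.701, 1.24 and 1.35 CPM against 0, 0.0839 and 0.163 CPM, a log2 fold change of 3.62 ± 0.57. C3, the central component, had 33.6, 30.6 and 32.8 CPM against 32.7, 31.4 and 30.8 CPM and did not pass.

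Chemokines and cytokines showed 10 higher and 2 lower of 22 tested, with a median of 0.11, against 25.0% higher and 24.7% lower over all genes. Cxcl10, a chemokine that interferons induce, had 2.89, 1.47 and 2.47 CPM against 0.395, 0.252 and 0.326 CPM, a log2 fold change of 2.80 ± 0.35. Ccl2, which attracts monocytes, had 35.1, 34.2 and 36.6 CPM against 14.3, 15.1 and 14.6 CPM, a log2 fold change of 1.27 ± 0.06. Ccl20 and Il11 were higher by 1.80 ± 0.49 and 1.79 ± 0.41 at about 1 CPM or less. The 2 lower members were Il34 and Tslp, and only 1 stayed lower without replicate 1 of MYAZ12.3i or without replicate 1 or 3 of MYAZ6.6g. Il6 and Tnf had at most 2 counts.

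Genes of sterol and fatty acid synthesis were lower in MYAZ12.3i by small and even amounts. All 31 were tested, and 23 were lower and 2 higher, with a median of -0.21, against 24.7% of all genes that were lower. Hmgcs1, which makes the HMG-CoA that enters the sterol pathway, had 90.3, 104 and 98.2 CPM in MYAZ12.3i and 171, 164 and 171 CPM in MYAZ6.6g, a log2 fold change of -0.80 ± 0.04. The cultures of the lines did not overlap. Further along the pathway, Fdft1 (squalene synthase) was at -0.51 ± 0.05, Sqle at -0.39 ± 0.03 and Cyp51 at -0.44 ± 0.04. The factors Srebf1 and Srebf2 were at -0.20 ± 0.03 and -0.21 ± 0.02 and their retention factor Insig1 at -0.25 ± 0.04. Fasn, the fatty acid synthase, had 456, 474 and 458 CPM against 530, 565 and 570 CPM, a log2 fold change of -0.27 ± 0.03. Scd1, the desaturase that makes oleate, had 225, 232 and 236 CPM against 238, 233 and 227 CPM, and it overlapped and did not pass.

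Acaca, which makes malonyl-CoA for fatty acids, went the other way and was higher by 0.12 ± 0.03. Hmgcs1 lies on chromosome 13, which as a whole was lower in MYAZ12.3i (below). Without the genes of chromosomes 4, 13 and X and the mitochondrial genome, 17 of the remaining 24 were lower and 1 higher, with a median of -0.16. Genes of chromosome 15, which had a median of -0.148 over all its genes tested (below), were kept in. Summed over the list, levels were 4470, 4580 and 4490 CPM in MYAZ12.3i, 5120, 5140 and 5210 CPM in MYAZ6.6g and 4980, 4940 and 4940 CPM in MYAZ12.3i_NDI1. MYAZ6.6g had the highest summed level of the 10 lines and MYAZ12.3i ranked 3.
The promoter of Hmgcs1 is shown because this gene differed most among the lower members, and capitals mark the letters TCACNCCAC, which resemble the sterol response element that SREBP factors bind.
Hmgcs1 (chr13:119690101-119690400, plus strand): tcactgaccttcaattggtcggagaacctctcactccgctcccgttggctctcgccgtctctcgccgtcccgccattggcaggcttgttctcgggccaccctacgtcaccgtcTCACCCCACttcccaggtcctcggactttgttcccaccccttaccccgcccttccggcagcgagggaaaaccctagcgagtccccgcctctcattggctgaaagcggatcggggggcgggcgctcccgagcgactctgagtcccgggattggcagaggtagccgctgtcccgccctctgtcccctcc
It was the only 1 of 21 members with a window that held this match on either strand (4.76%), against 127 of 9414 tested genes (1.35%).

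Transcripts of the mitochondrial genome were lower in MYAZ12.3i and varied between its cultures. Of the 13 respiratory subunits that this genome encodes, 11 were lower and 0 higher, with a median of -0.57, against 24.7% lower over all genes. Summed, they had 9700, 7520 and 10900 CPM in MYAZ12.3i and 13400, 13200 and 15100 CPM in MYAZ6.6g. Replicate 2 of MYAZ12.3i, the library that stood apart, was the lowest, and the lines did not overlap. Without it 11 subunits were again lower. COX2 (cytochrome c oxidase subunit 2) had 846, 596 and 930 CPM against 1470, 1370 and 1530 CPM, a log2 fold change of -0.88 ± 0.09. CYTB of complex III had 892, 650 and 1000 CPM against 1350, 1280 and 1510 CPM, a log2 fold change of -0.71 ± 0.09. Subunits of complex I were between -0.47 (ND3) and -0.80 (ND6), and the cultures overlapped at ND3, which did not pass without replicate 3 of MYAZ6.6g (-0.22), while ND5 moved to -0.31 without replicate 2 of MYAZ12.3i. ATP8 and ATP6 of the ATP synthase, at -0.03 ± 0.06 and -0.15 ± 0.09, did not pass. Leaving out any single library gave 10 to 12 subunits lower. Of the 10 lines MYAZ12.3i had the lowest summed level and Myc310 the highest (a mean of 19700 CPM), while the cultures of MYAZ16.1e spread from 13200 to 20300 CPM. The libraries were made from polyadenylated RNA, and the part of RNA quality in these levels was not tested.

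Glycolysis and lactate genes went both ways, 11 higher and 9 lower of 25, with a median of 0.08. The neuronal glucose transporter Slc2a3 (0.93 ± 0.26) and the aldolase Aldoc (0.85 ± 0.10) were higher. The hexokinases of the first step went opposite ways. Hk1 had 222, 221 and 219 CPM against 307, 310 and 302 CPM, a log2 fold change of -0.48 ± 0.02. Hk2 was higher, with up to 4108 counts in a MYAZ12.3i library and up to 3372 in a MYAZ6.6g library. The summed levels of 16900 CPM in MYAZ12.3i and 16700 to 17000 CPM in MYAZ6.6g overlapped.

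Glutathione is made from cysteine, which cells import as cystine or form by transsulfuration. In a list of transsulfuration and glutathione genes more members were lower than higher in MYAZ12.3i, and more of the glutathione S-transferases were higher than lower. Of 23 tested genes of transsulfuration and glutathione metabolism, 3 were higher and 13 lower, with a median of -0.13, against 25.0% higher and 24.7% lower over all genes. The list is wider than glutathione enzymes. Its lower members include Mat2a, Ahcy and Mtr of the methionine cycle and Sqor and Ethe1 of sulfide oxidation, and its higher members include transporter chains. Slc7a11, the cystine and glutamate exchanger, had 19.4, 21.6 and 23.1 CPM in MYAZ12.3i and 10.4, 9.32 and 10.1 CPM in MYAZ6.6g, a log2 fold change of 1.10 ± 0.08. Its partner chain Slc3a2 was higher by 0.20. Gclc, the catalytic chain of the first glutathione enzyme, had 121, 120 and 125 CPM against 104 CPM in each culture, a log2 fold change of 0.23 ± 0.03, while its modifier Gclm did not pass (-0.04 ± 0.03) and Gss, the second enzyme, was at -0.33 ± 0.04. The transsulfuration enzymes Cbs (2.35, 2.80 and 2.47 CPM against 2.63, 2.10 and 2.08 CPM) and Cth (11.2, 10.0 and 10.1 CPM against 11.1, 10.2 and 9.05 CPM) overlapped and did not pass. Gpx3, the secreted glutathione peroxidase, had 1.61, 1.33 and 0.994 CPM against 5.70, 4.32 and 5.42 CPM, a log2 fold change of -1.98 ± 0.20. Sqor, which oxidises sulfide, was at -0.64 ± 0.16.

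Of 18 glutathione S-transferases tested, 11 were higher and 2 lower, with a median of 0.46, against the same shares. Gstt1 had 6.10, 6.24 and 6.24 CPM against 2.15, 1.97 and 1.63 CPM, a log2 fold change of 1.69 ± 0.16. Gstm1 had 203, 204 and 207 CPM against 147, 140 and 142 CPM, a log2 fold change of 0.51 ± 0.03, and Gstp1 was higher by 0.41 ± 0.03. Gsta4 and Gstm4 were higher by 0.85 ± 0.11 and 0.82 ± 0.18, and the microsomal Mgst3 was at -0.48 ± 0.10. Without replicate 3 of MYAZ6.6g only 1 transferase was lower. Gstm and Gsta genes are close paralogs, so their separate counts are uncertain. The summed level was 754, 780 and 784 CPM in MYAZ12.3i, the highest of the 10 lines, and 619, 604 and 603 CPM in MYAZ6.6g. Targets and regulators of NRF2, the factor that induces many of these enzymes, gave 7 higher and 8 lower of 26 with a median of 0.00. Cbr3 (1.25 ± 0.22) and Ephx1 (0.75 ± 0.08) were higher, and Nqo1 (-0.50 ± 0.11), Txn1 (-0.43 ± 0.02) and Pgd (-0.53 ± 0.03) lower. Txn1 and Pgd lie on chromosome 4, and 4 of the 8 lower members lay outside chromosomes 4, 13 and X.

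Genes of serine synthesis, one-carbon metabolism and the amino acid stress response gave 13 higher and 7 lower of 28, with a median of 0.08. Aldh1l2, the mitochondrial enzyme that oxidises formyl-tetrahydrofolate, had 43.5, 45.8 and 47.3 CPM against 16.6, 15.9 and 16.2 CPM, a log2 fold change of 1.48 ± 0.06, and its cytosolic relative Aldh1l1 was higher by 1.21 ± 0.16. Asns, asparagine synthetase, had 240, 244 and 254 CPM against 153, 155 and 162 CPM, a log2 fold change of 0.64 ± 0.03. The serine enzymes Psph and Phgdh were higher by 0.80 ± 0.06 and 0.22 ± 0.02. The factor Atf5 was higher by 0.64 ± 0.03, whereas Atf4, which drives many genes of this list, had 239, 234 and 233 CPM against 271, 269 and 273 CPM, a log2 fold change of -0.21 ± 0.02. Sesn2 was at -0.68 ± 0.08.

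**Figure D4:**
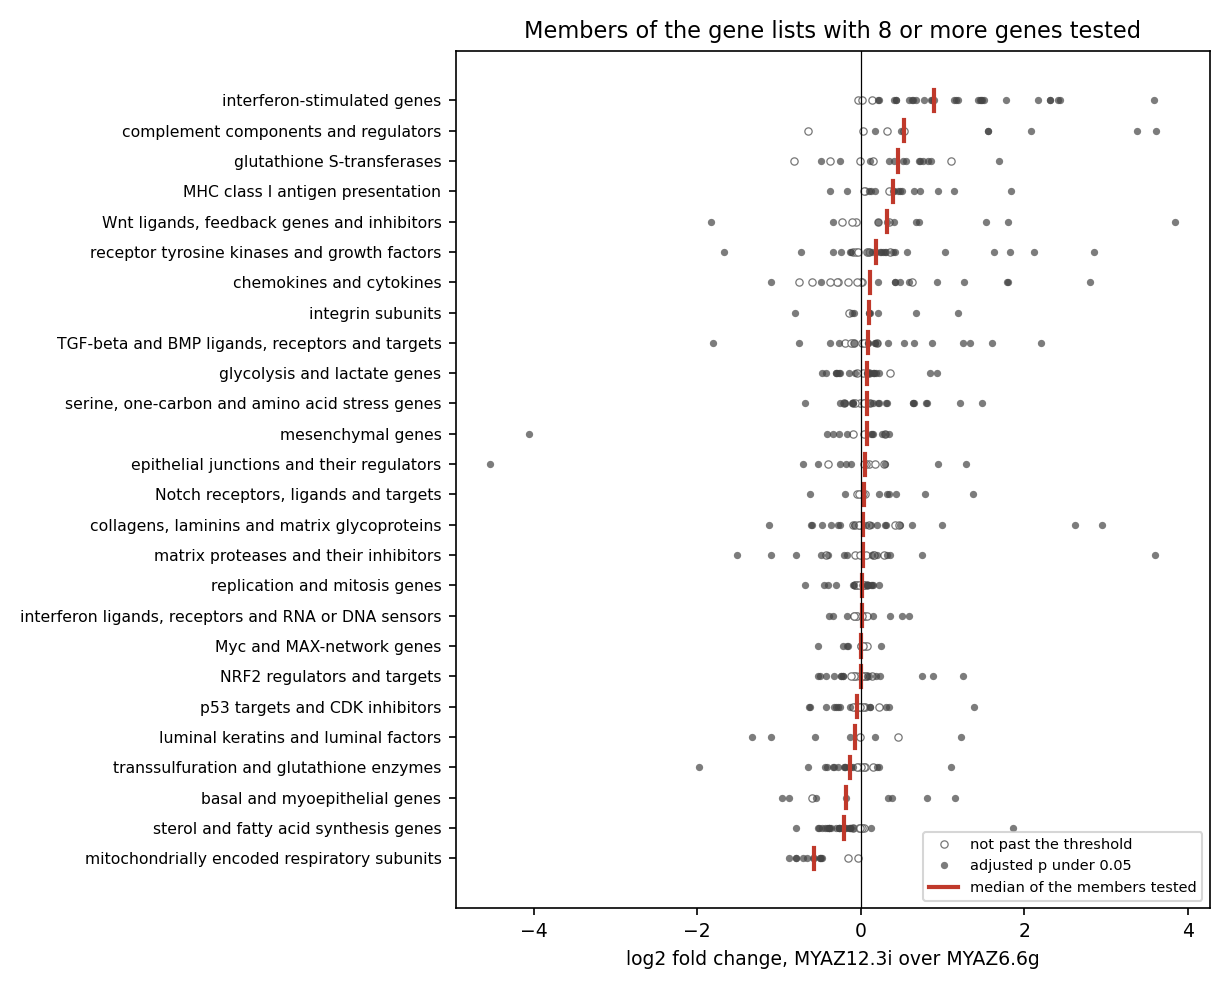
Log2 fold changes of the members of each list with 8 or more genes tested, filled where the adjusted p was under 0.05, with a red bar at the median of the members tested. The medians run from -0.57 for mitochondrially encoded subunits to 0.90 for interferon-stimulated genes, and most lists have members on both sides of 0.

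Among genes of mammary epithelium, the keratins Krt7, Krt8, Krt18 and Krt16 were lower in MYAZ12.3i, while Krt19 and Krt14 did not pass. Of 20 luminal genes only 8 could be tested, of which 4 were lower and 2 higher (Areg and Gata3), with a median of -0.07. Besides Krt8, the lower members were Krt18 (94, 101 and 105 CPM against 154, 146 and 142 CPM, -0.56 ± 0.04), Krt7 (-1.10 ± 0.09) and Cd24a. Krt19 had a mean of 21.1 CPM in both lines. Gata3, the main luminal transcription factor, was higher by 0.17 ± 0.04, and without any single MYAZ12.3i culture, or without replicate 1 or 3 of MYAZ6.6g, only 1 member was higher. Elf5 and Kit, of luminal progenitors, had no count. Basal genes gave 4 higher and 4 lower of 9, with a median of -0.18. Acta2, smooth muscle actin, had 323, 305 and 305 CPM against 251, 244 and 245 CPM, a log2 fold change of 0.33 ± 0.03, and both lines stood far above the mean of 5.97 CPM in MYAZ16.1e. Cnn1 was higher by 0.81 ± 0.21 and Krt16 lower at -0.96 ± 0.23. Milk and alveolar genes gave 3 higher and 1 lower of 5, with Csn3 (kappa casein) higher by 1.25 ± 0.16 at about 5 CPM.

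The desmosome gene Dsp separated the lines most within the list of junction genes. Desmoplakin, which ties desmosomes to keratin, had 0.660, 0.688 and 0.398 CPM in MYAZ12.3i and 13.8, 13.3 and 13.2 CPM in MYAZ6.6g, a log2 fold change of -4.53 ± 0.17, with a mean of 0.127 CPM in MYAZ16.1e. Of 16 junction genes tested 6 were lower and 3 higher, with a median of 0.05. Dsc2, another desmosome gene, was at -0.71 ± 0.12, while Ocln of tight junctions was higher by 1.29 ± 0.27. Mesenchymal genes gave 6 higher and 5 lower of 14, with a median of 0.08. Foxc2, a factor linked to epithelial-mesenchymal transition, had 0.206, 0.275 and 0.318 CPM against 5.26, 3.86 and 4.44 CPM, a log2 fold change of -4.06 ± 0.27. The factors Zeb1 and Zeb2 were higher by 0.35 and 0.29, and Cdh2 (N-cadherin) was at -0.41 ± 0.04.

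Matrix genes also went both ways. Of 26 collagens, laminins and glycoproteins tested, 10 were higher and 8 lower, with a median of 0.03. Col3a1, a fibrillar collagen, had 10.3, 10.3 and 9.62 CPM against 2.33, 1.47 and 1.10 CPM, a log2 fold change of 2.63 ± 0.18, and Nid2, of basement membranes, had 2.19, 3.03 and 2.43 CPM against 0.307, 0.378 and 0.285 CPM, a log2 fold change of 2.95 ± 0.30. Lama3, a chain of laminin 332, was at -1.12 ± 0.27. Among 20 proteases and inhibitors tested, 6 were higher and 7 lower. Serpinf1, above, led the former, and Serpinb2 (-1.51 ± 0.13), Adam8 (-1.10 ± 0.06) and Timp1 (-0.80 ± 0.05) the latter. Integrin subunits gave 6 higher and 3 lower of 10. Itga1 and Itgb3 were higher by 1.19 ± 0.24 and 0.68 ± 0.10, and the 3 lower calls became 1 without replicate 1 or 2 of MYAZ12.3i or replicate 2 of MYAZ6.6g, and 0 without replicate 3 of MYAZ6.6g.

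Receptor tyrosine kinases and growth factors gave 16 higher and 6 lower of 29 tested, with a median of 0.19, against 25.0% higher and 24.7% lower over all genes. Of the PDGF family, the receptors Pdgfra and Pdgfrb and the ligands Pdgfa and Pdgfb were higher in MYAZ12.3i. Pdgfrb had 35.2, 33.4 and 31.7 CPM against 23.2, 22.3 and 22.1 CPM, a log2 fold change of 0.57 ± 0.06, with a mean of 0.534 CPM in MYAZ16.1e. The ligand Pdgfb had 2.89, 3.03 and 2.47 CPM against 0.746, 0.546 and 0.611 CPM, a log2 fold change of 2.13 ± 0.25, and Pdgfa was higher by 0.27. Pdgfb was not as high in MYAZ12.3i_NDI1 (a mean of 1.12 CPM). Of the FGF family, Fgf2 (1.83 ± 0.32) and Fgfr2 (1.03 ± 0.17) were higher and Fgfr1 slightly lower (-0.12 ± 0.03). The Wnt receptor Ror1 was at -1.67 ± 0.18 and Ephb2 at -0.73 ± 0.05, both on chromosome 4. The receptors Egfr, Erbb2 and Erbb3 did not pass.

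Wnt genes gave 8 higher and 2 lower of 15, with a median of 0.32, against 25.0% higher and 24.7% lower over all genes, and 15 of the 30 listed were not tested. Wnt5a, a ligand of the non-canonical branch, had 0.742, 0.917 and 0.994 CPM in MYAZ12.3i and at most 3 counts in MYAZ6.6g, at least 6.92-fold higher. Wnt10a, a canonical ligand, had 5.07, 5.87 and 4.30 CPM against 1.75, 1.80 and 1.67 CPM, a log2 fold change of 1.53 ± 0.18. Its means of 15.1 CPM in MYAZ16.1e and 19.2 CPM in MYAZ12.3i_NDI1 were higher still. Axin2, the feedback target of canonical signalling, had 0.165, 0.0917 and 0.199 CPM against 0.658, 0.588 and 0.448 CPM, a log2 fold change of -1.84 ± 0.50. Of other members that are not ligands, Tcf7 was higher by 0.67 ± 0.06, Lgr6 by 0.32 ± 0.09 and Znrf3 by 0.21 ± 0.04. Notum was higher by 0.41 ± 0.15 but did not pass with DESeq2 or without replicate 2 or 3 of either line. The ligands Wnt4 (-0.23 ± 0.11), Wnt7b (0.22 ± 0.11) and Wnt9a (0.34 ± 0.27) did not pass.

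Notch genes gave 6 higher and 2 lower of 14, with a median of 0.04. The receptor Notch3 had 6.19, 4.95 and 4.37 CPM against 2.06, 1.72 and 2.16 CPM, a log2 fold change of 1.38 ± 0.18. Notch1 and Notch4 were at -0.19 and -0.62 ± 0.06, and the ligand Jag1 was higher by 0.32 ± 0.06. Of the targets, Hes1 did not pass, and Hey1 was higher by 0.78 ± 0.24 but did not pass with DESeq2 or without replicate 1 of MYAZ12.3i. TGF-beta and BMP genes gave 13 higher and 5 lower of 26, with a median of 0.09. The ligand Tgfb2 had 13.6 ± 1.2 CPM (SD, n = 3 cultures) against 5.37 ± 0.162 CPM, with no overlap, a log2 fold change of 1.34 ± 0.10. The BMP antagonist Nog (noggin) had 0.742, 0.734 and 0.557 CPM against 2.63, 2.56 and 1.92 CPM, a log2 fold change of -1.80 ± 0.27, while the activin antagonist Fst (2.21 ± 0.61, and 3.66 without replicate 3 of MYAZ6.6g), the ligand Bmp2 (1.61 ± 0.43) and Inhbb (1.25 ± 0.27) were higher. Bmp7 was at -0.76 ± 0.11.

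Genes of the MYC network and of the cell cycle differed little. Of 11 tested genes of the MYC and MAX network, 1 was higher and 4 lower, with a median of 0.00, and the largest difference was that of Mxd3, a MAX partner, at -0.52 ± 0.12. Without replicate 3 of MYAZ12.3i 2 were higher. Of 27 replication and mitosis genes, 8 were higher and 6 lower, with a median of 0.02 and none over 2-fold. The proliferation marker Mki67 had 541, 537 and 536 CPM against 529, 551 and 548 CPM and did not pass (-0.02 ± 0.02). Ccnb1 (-0.45 ± 0.02) and E2f2 (-0.68 ± 0.07) were lower and lie on chromosomes 13 and 4. Of 27 targets of p53 and inhibitors of cyclin-dependent kinases, 5 were higher and 8 lower, with a median of -0.04, and without replicate 3 of MYAZ6.6g 3 were higher. The death receptor Fas was higher by 1.38 ± 0.20, Trp53 by 0.12 ± 0.03, while Cdkn1a (0.05 ± 0.07) and Cdkn2a (-0.07 ± 0.03) did not pass, the latter passing without replicate 2 of MYAZ12.3i or replicate 3 of MYAZ6.6g.

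Of 39 Hox genes listed, 36 were in the table, 33 of them with 3 counts or fewer in all 6 libraries, and 3 were tested. Hoxa5 (above) and Hoxb4 (3.83, 3.81 and 3.94 CPM against 1.27, 2.43 and 1.35 CPM, 1.19 ± 0.22) were among them and higher in MYAZ12.3i. Imprinted genes gave 2 higher and 1 lower of 6, with Phlda2 higher by 0.92 ± 0.23, and of 14 germline genes in the table only Sycp1 was tested (-0.93 ± 0.27).

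Markers of other cells of the mammary gland were mixed in level. Of the fibroblast markers, 3 of 4 tested were higher (Pdgfra, Pdgfrb and Col3a1) and Col1a1 did not pass unless replicate 1 of MYAZ12.3i was left out. The summed level of the 12 markers was 93.6 to 97.5 CPM in MYAZ12.3i and 32.1 to 34.1 CPM in MYAZ6.6g, most of it from Pdgfra, Pdgfrb and Col3a1, and it was higher still in LM3 and LM3_LM. The defining fibroblast genes Dcn, Lum, Thy1, Fap and Dpt had at most 3 counts in any of the 6 libraries. Of the leukocyte markers, 0 of 2 tested passed. These were Cd14, at 13.6, 13.6 and 14.8 CPM against 15.2, 15.5 and 14.3 CPM, and Cd68, at 4.91, 4.03 and 5.05 CPM against 3.99, 5.12 and 5.06 CPM, while Ptprc, which encodes CD45, had at most 3 counts. The endothelial markers tested, Flt1 (0.44 ± 0.04) and Kdr, were higher, and Kdr did not pass when any library other than replicate 3 of MYAZ6.6g was left out, while Cdh5 and Pecam1 had at most 3 and 5 counts. Of the adipocyte markers Fabp4 was higher and Plin4 lower, the latter not without replicate 1 of MYAZ12.3i or replicate 3 of MYAZ6.6g (-0.19), and Adipoq had at most 2 counts. In a bulk sample more cells of a type and more RNA per cell cannot be told apart.

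Differences were not spread evenly over the genome. Most genes of chromosomes 4, 13 and X were lower in MYAZ12.3i, and on chromosome 15 lower genes outnumbered higher ones. On chromosome 4 the median log2 fold change was -0.261, a ratio of 0.834, and 529 of 790 genes tested were lower (67.0%) and 44 higher. On chromosome 13 the median was -0.250 with 284 of 499 lower (56.9%), on the X chromosome -0.283 with 228 of 366 lower (62.3%) and on chromosome 15 -0.148 with 254 of 512 lower (49.6%) and 62 higher, against 24.7% of all genes. Chromosomes 9, 11 and 7 had the highest medians, 0.094, 0.093 and 0.091. Over the 9 pairs of a MYAZ12.3i with a MYAZ6.6g culture, the medians ran from -0.271 to -0.254 on chromosome 4, -0.269 to -0.240 on chromosome 13, -0.307 to -0.258 on the X chromosome and -0.152 to -0.137 on chromosome 15, so every pair gave medians below 0.

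**Figure D5:**
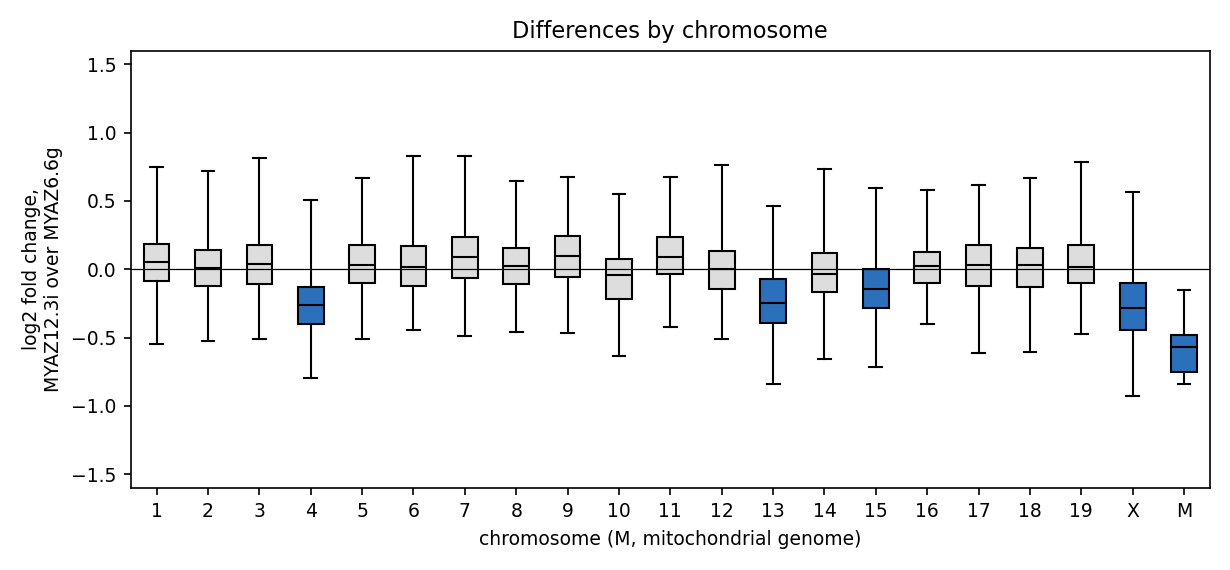
Log2 fold changes of the genes tested by chromosome, as boxes from the 25th to the 75th percentile with a line at the median and whiskers from the 5th to the 95th. The boxes of chromosomes 4, 13 and X and of the mitochondrial genome (blue) lie below 0, that of chromosome 15 (blue) reaches up to it, and the other boxes span it.

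In windows of 10 Mb with at least 15 genes tested, all 13 of chromosome 4, all 12 of chromosome 13, all 11 of the X chromosome and all 8 of chromosome 15 had a median below 0, against 52 of 190 windows elsewhere. Chromosome 10 was low over part of its length. Its windows from 0 to 50 Mb had medians of -0.253, -0.203, -0.316, -0.272 and -0.119, and those from 50 Mb on lay between -0.043 and 0.036. After the mitochondrial genome the lowest medians were at 0 to 10 Mb of the X chromosome (-0.392), 130 to 140 Mb of chromosome 4 (-0.335) and 50 to 60 Mb of the X chromosome (-0.326), and the highest at 40 to 50 Mb of chromosome 11 (0.241), 90 to 100 Mb of chromosome 7 (0.192) and 30 to 40 Mb of chromosome 9 (0.192).

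The model of 30 libraries gives the same chromosomes against MYAZ16.1e, in comparisons that share its cultures. On chromosome 4 the median was -0.277 for MYAZ12.3i over MYAZ16.1e and -0.018 for MYAZ6.6g over MYAZ16.1e, so MYAZ12.3i was the low line of the 3. On chromosome 13 these medians were -0.005 and 0.224 and on chromosome 15 -0.005 and 0.126, so there MYAZ6.6g was the high line. On the X chromosome they were -0.563 and -0.296, with MYAZ6.6g between the other lines. Gene copy number was not measured in these libraries. When the p-values of the same fit were adjusted again without the genes of chromosomes 4, 13 and X and the mitochondrial genome, 5135 of 11094 genes passed, 3068 of them higher and 2067 lower, and of the interferon-stimulated list 26 of 29 were higher and 0 lower with a median of 1.14.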

How the data were processed

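RNA was sequenced as polyadenylated mRNA (NEBNext Ultra II Directional, paired-end reads on a NovaSeq). The authors aligned reads with STAR and quantified genes with RSEM in the nf-core RNA-seq pipeline on GRCm38, and deposited whole-number raw counts per gene. The authors tested differences with DESeq2 (version 1.38.3 in R 4.2.2, per the labels), and none of their test results is used here. The table lists 28454 genes, of which 28444 matched GENCODE mouse release 21, the source of positions.

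Here, counts of the 6 libraries were filtered with filterByExpr, scaled by TMM and tested with edgeR 4.0.16 (quasi-likelihood test, R 4.3.3), with Benjamini-Hochberg adjustment over all 12764 genes and a threshold of 0.05. A gene near 0 in 1 line can pass the filter through the other line alone, so its direction in a list count was largely fixed. SE is the absolute log2 fold change over the square root of F. CPM per culture use TMM factors over all 45 libraries, and log2 CPM a prior count of 2. Depth limits genes near 3 counts, the floor for a library without a gene, and floors cover counting error only. The 33 lists (and 2 added after values were seen, 27 of their names unmatched and not used here) and the compared lines were chosen with earlier results of these data known. Genes named are the 12 largest changes in each direction (mean log2 CPM of at least 3, no overlap of cultures, no predicted or clone name), the 6 highest above the floor in 1 line only, up to 3 of each list in each direction with members a list needs, and Myc, Xist and Y-linked genes. Some genes that this rule selects are not reported here. The test was tried on simulated counts first. Alternatives were RLE and upper-quartile scaling, 2 other filters, a replicate block, 9 or 30 libraries, limma voom 3.58.1, DESeq2 1.42.0 and leaving out each culture.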

Additional observations from a re-analysis of the deposited data

How the results depend on the processing

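The count of 6338 genes held within 1.5 times under every alternative, from 5001 (DESeq2) to 6410 (upper-quartile scaling, 3504 higher and 2906 lower), and leaving out any single culture gave 5689 to 5855. With a replicate block the count was 6248, of which 6173 were shared, and the same numbers do not pair the cultures (correlations of deviations 0.0259, 0.0245 and -0.0128), so the block is given only here. With at least 10 counts in every library, 206 genes were over 2-fold higher and 114 lower, since genes near 0 in 1 line leave the test. Without chromosomes 4, 13 and X and the mitochondrial genome, chosen after seeing the data, 3068 genes were higher and 2067 lower. When genes under a mean of 3 on the log2 CPM scale were dropped, the distance between the lines was 0.273 and ranked 5 among the pairs, the medians of chromosomes 13 and 4 were -0.27 and -0.268, and those of chromosomes 12 and 2, close to 0, turned to -0.001 and -0.005. No alternative moved the median of all genes by more than 0.0184. Of 396 genes called among those named or listed, 330 kept their call throughout, 66 lost it in some alternative (4 under DESeq2 alone) and 0 reversed. Depth limits genes of a few counts, and the smallest difference that could be detected was not computed. The filter also left out genes with larger differences, such as Col5a2, with up to 14 counts in a MYAZ12.3i library and at most 1 in MYAZ6.6g.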
